A study of Mus musculus with 46 samples.

Results

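The 300 promoters with the most long-range contacts in mouse liver were described here. They were selected on the number of interactions listed for each bait in promoter capture Hi-C, summed over a list from livers on a lipid-rich diet (LD) and a list from livers on a carbohydrate-rich diet (CD), and they made up 1.69% of the 17705 baits that had any listed interaction. Animals were male C57BL/6 mice whose diets began at 6 weeks of age and lasted 20 weeks. LD supplied 60% of its energy as fat and 20% as carbohydrate, and CD supplied 10% as fat and 70% as carbohydrate. Whole liver was profiled by capture Hi-C, Hi-C, and HNF4a and C/EBPa ChIP-seq in 2 mice per diet, by H3K27ac ChIP-seq in 3 and by RNA-seq in 5. Each interaction list and each domain list came from 2 pooled mice, so the values read from them carried no replicate error. All groups were of one sex, strain and age, and whole tissue mixes hepatocytes with the other cells of the liver.

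Capture Hi-C cuts crosslinked chromatin with the enzyme HindIII, ligates ends that lay close together in the nucleus, and pulls out the ligations that include a promoter fragment, the bait. The other end of such a pair, the distal fragment, can carry an enhancer, which is often marked by acetylation of histone H3 at lysine 27 (H3K27ac). CHiCAGO, the tool the study used, scores each pair for how far its read count exceeds what the distance and the ends would give, and pairs with a score of at least 5 and up to about a megabase apart were listed. Promoters and enhancers that contact each other usually sit in one topologically associating domain, a stretch of chromosome that mostly contacts itself.

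Every bait and every distal end was a single HindIII fragment. The cut ends of the bait with the most interactions, that of Zfp595, are shown to mark what a bait is. The bait lay at chr13:67433462-67435144 of the mouse genome build mm9, and capitals mark the HindIII site AAGCTT at either end, on the forward strand.
Zfp595 bait, left end: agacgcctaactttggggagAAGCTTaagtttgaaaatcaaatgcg
Zfp595 bait, right end: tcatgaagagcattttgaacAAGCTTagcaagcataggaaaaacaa

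The promoters of 6 genes are shown because later results turn on them. Each covers 250 bases before to 50 after the RefSeq start site, taken from the GRCm38.p6 set and located in mm9 by exact match with the start site inside the bait. The Zfp595 window runs past the left end of its bait, across the HindIII cut. All 6 baits carried H3K27ac in every one of the 6 mice profiled. Capitals mark matches, on either strand, to any of 7 motifs searched for, none of which contains another. They were the HindIII site AAGCTT, the TATA box TATAAA, the CCAAT box CCAAT, an HNF4 half-site pair CAAAGTCCA, the C/EBP palindrome TTGCGCAA, the E-box CACGTG and the SP/KLF box GGGCGG. The windows were chr13:67433447-67433746 (minus strand), chr7:20300729-20301028 (minus), chr3:52072009-52072308 (plus), chr1:82287965-82288264 (minus), chr4:94718864-94719163 (minus) and chr1:193399374-193399673 (minus).
Zfp595 promoter: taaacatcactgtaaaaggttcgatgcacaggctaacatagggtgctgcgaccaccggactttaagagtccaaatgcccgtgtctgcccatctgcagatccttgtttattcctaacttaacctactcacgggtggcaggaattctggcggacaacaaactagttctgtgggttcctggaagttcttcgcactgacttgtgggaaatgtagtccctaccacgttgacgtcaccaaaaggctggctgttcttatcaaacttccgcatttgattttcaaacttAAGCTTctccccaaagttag
Tomm40 promoter: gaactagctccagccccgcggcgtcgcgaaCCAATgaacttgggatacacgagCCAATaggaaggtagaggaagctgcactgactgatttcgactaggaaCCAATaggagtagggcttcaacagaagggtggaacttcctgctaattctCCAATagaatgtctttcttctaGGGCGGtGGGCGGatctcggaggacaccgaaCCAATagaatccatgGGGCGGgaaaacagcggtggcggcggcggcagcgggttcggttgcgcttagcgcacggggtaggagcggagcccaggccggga
Foxo1 promoter: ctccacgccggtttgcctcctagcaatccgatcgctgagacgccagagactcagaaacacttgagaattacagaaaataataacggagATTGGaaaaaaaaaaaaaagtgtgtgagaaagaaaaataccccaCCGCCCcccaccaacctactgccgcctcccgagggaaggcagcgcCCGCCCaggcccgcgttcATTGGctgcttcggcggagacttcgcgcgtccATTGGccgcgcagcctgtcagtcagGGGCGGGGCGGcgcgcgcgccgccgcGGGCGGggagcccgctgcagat
Irs1 promoter: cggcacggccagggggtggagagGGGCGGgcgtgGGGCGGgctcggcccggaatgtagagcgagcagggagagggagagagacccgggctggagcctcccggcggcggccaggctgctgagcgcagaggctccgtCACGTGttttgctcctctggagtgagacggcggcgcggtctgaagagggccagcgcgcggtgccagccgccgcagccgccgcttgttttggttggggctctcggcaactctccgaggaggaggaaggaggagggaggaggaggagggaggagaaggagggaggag
Jun promoter: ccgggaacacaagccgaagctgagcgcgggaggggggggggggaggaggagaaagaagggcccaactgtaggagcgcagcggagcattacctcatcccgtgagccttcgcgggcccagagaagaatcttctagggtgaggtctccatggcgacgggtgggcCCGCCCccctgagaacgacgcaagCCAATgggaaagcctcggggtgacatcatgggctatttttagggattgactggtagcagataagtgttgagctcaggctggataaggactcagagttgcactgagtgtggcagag
Dtl promoter: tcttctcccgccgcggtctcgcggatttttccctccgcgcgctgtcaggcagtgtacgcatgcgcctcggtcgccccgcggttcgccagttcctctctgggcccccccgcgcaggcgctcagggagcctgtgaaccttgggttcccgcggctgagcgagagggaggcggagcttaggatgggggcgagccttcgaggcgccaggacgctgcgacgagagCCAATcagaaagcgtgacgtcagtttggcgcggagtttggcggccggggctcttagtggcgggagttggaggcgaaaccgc

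A RefSeq promoter was listed for 209 of the 282 genes on the 300 baits, and 236 promoters of 204 genes had their start site inside their bait. Their median GC content was 60.3%, against 52.7% over all 32851 mouse promoters of the same length. The SP/KLF box was in 57.2% of them and in 35.7% of all promoters, and the CCAAT box was in 38.6% and 37.4%. The TATA box was rarer on the 300 baits, at 8.05% against 13.6%, and the E-box was in 11% against 7.15%. The HindIII site was in 4.66% against 7.45%. No promoter on the 300 baits held the exact HNF4 pair or C/EBP palindrome, which were also rare genome-wide at 0.475% and 0.183%. These are letter matches, given without a test.

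A number of the 300 baits covered microRNA genes, and mature sequences are shown for those at ranks 40 and 133, where several microRNAs share 1 bait. Capitals mark the seed, bases 2 to 8, which sets the targets a microRNA pairs with. The bait at rank 40, chr13:63399869-63407274, holds the hairpins of miR-23b, miR-27b, miR-3074 and miR-24-1 and was linked 101 times on LD and 108 times on CD, with 90% of its 110 distal fragments linked on both diets. The bait at rank 133 holds Hic1 and the hairpins of miR-132 and miR-212, whose 3p arms have the same seed. All sequences are from RefSeq.
miR-23b-5p: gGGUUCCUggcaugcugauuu
miR-27b-3p: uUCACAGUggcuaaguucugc
miR-24-3p: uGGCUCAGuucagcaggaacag
miR-132-3p: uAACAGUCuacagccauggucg
miR-212-3p: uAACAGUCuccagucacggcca

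The gene-level RNA-seq rows of the microRNA genes on these baits held between 0 and 3 counts over the 5 mice of a diet, so their expression was not measurable here.

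The 300 baits were linked between 116 and 376 times over both lists, with a median of 145, where the median of all baits was 9. They took part in 15.4% of the 151203 interactions on LD and 16.1% of the 149798 on CD. The rank curve had no step at rank 300. Just inside it were the baits of Gm10309-201 with 117 interactions and of Enkd1, SNORA17.192-201, Btg1 and Pctp with 116 each. Just outside were Chd8 and Eif1a with 116 each, and Dnaja1, Cped1 and Usp5 with 115 each. In all, 6 baits tied at 116 and 4 of them were included, by chromosome and start.

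**Figure D1:**
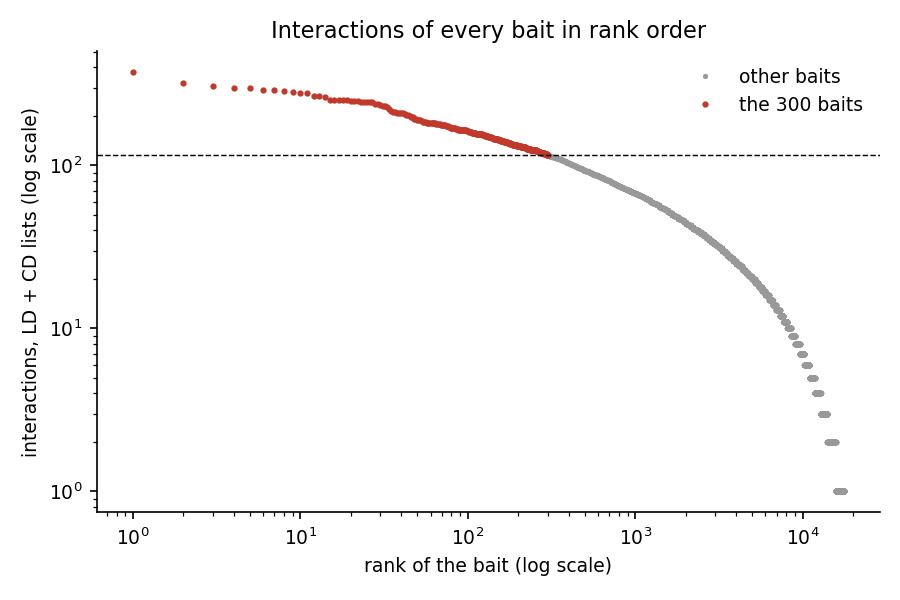
Interactions listed for each of the 17705 baits (vertical axis, LD and CD lists summed, log scale) against the rank of the bait (log scale). Red points are the 300 baits and the dashed line is the lowest sum among them, 116, which the curve crosses without a step.

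The bait of Zfp595, a zinc-finger gene, was linked most often, with 160 interactions on LD and 216 on CD. Gm5176 followed with 158 and 163, and Dhrs3, a retinal reductase, with 153 and 153. The bait shared by Cpsf3, the endonuclease that cuts pre-mRNA before polyadenylation, and Itgb1bp1, an integrin-binding protein, had 140 and 159. The bait named U1.88-201 had 151 and 146, and that of Bhlhe40, a repressor in the circadian clock, with 0610040F04Rik, had 138 and 154. Iah1, an esterase, had 147 and 145, SNORA17.293-201 had 151 and 134, and Phlda1, a pleckstrin-homology protein, had 137 and 147. The last of the first 10 was Vps13d-202, with 136 and 143.

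Ranks 11 to 20 were led by Relb, an NF-kB subunit, with 125 interactions on LD and 154 on CD. AL844481.1-201 had 137 and 129, the bait of Cd3eap and Ppp1r13l had 130 and 135, and Tomm40, the channel of the outer mitochondrial import complex, had 135 and 129. Rpp14, a ribonuclease P subunit, had 131 and 123, and its neighbour Pxk had 136 and 118. The baits 1700058P15Rik-001 (123 and 129), Ercc1-001 (121 and 131) and Clasrp (110 and 139) lay in the same stretch of chromosome 7 as Relb and Tomm40. Arrdc3, an arrestin-domain gene, had 118 and 134. Gm5176 and Phlda1 are neighbours, as are Cpsf3 and Iah1, Dhrs3 and Vps13d-202, and Rpp14 and Pxk, so the highest counts came in clusters.

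**Figure D2:**
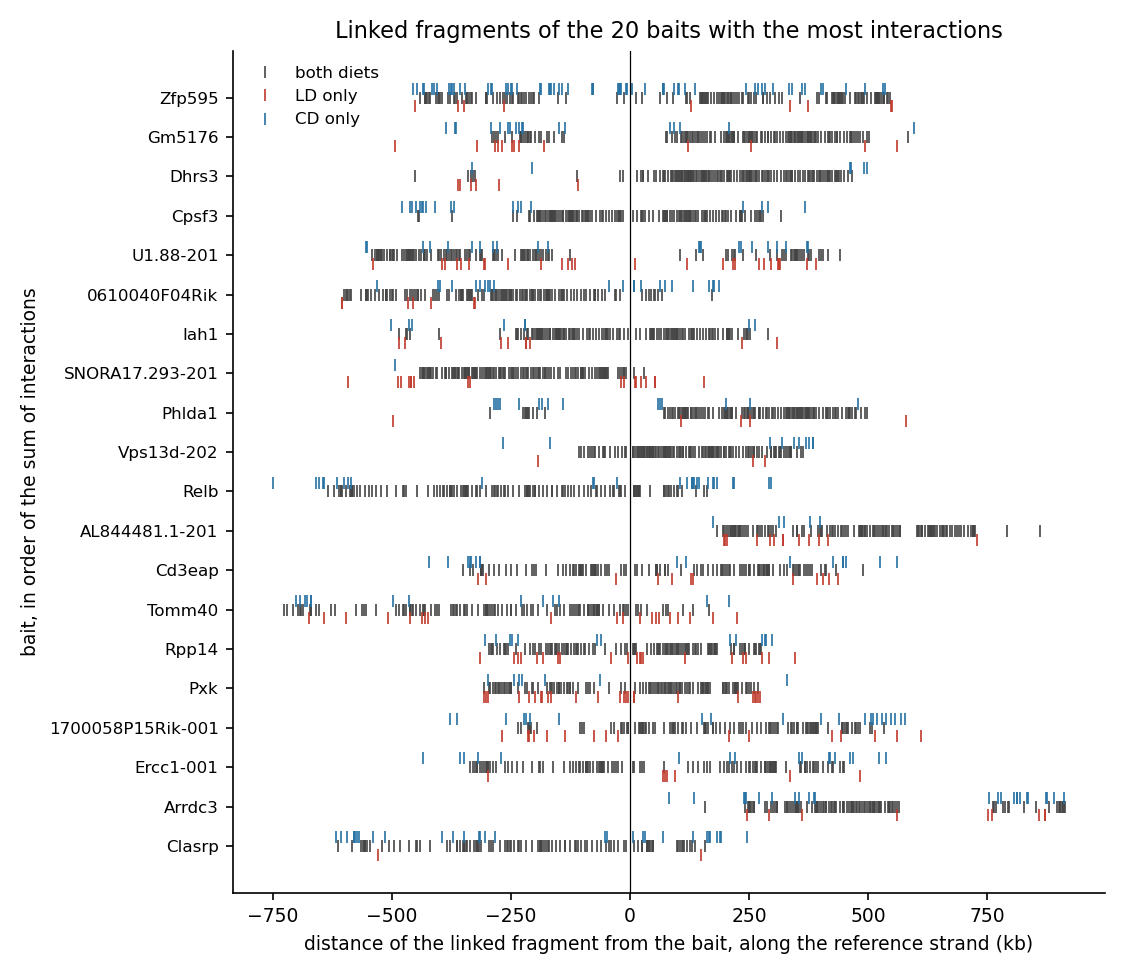
Distal fragments linked to the 20 baits with the most interactions (rows), by distance from the bait in kb along the reference strand. Grey marks are fragments linked on both diets, red on LD only and blue on CD only. Zfp595 has 65 fragments on CD only, and all fragments of Arrdc3 lie on 1 side.

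The balance between diets varied from bait to bait. The 300 baits had 23538 bait interactions on LD and 24336 on CD. More were listed on CD for 173 baits and on LD for 118, with 9 equal, and the median ratio of LD to CD was 0.970. The lowest ratio was 0.451, for Gm17359 with 41 on LD and 91 on CD, followed in this direction by Bloc1s3 with Trappc6a (64 and 116) and Vps13d (44 and 79). The highest was 1.83, for Nol6, a nucleolar ribosome-assembly protein, with 115 on LD and 63 on CD. Fam166b had 85 and 49, and Zfp36l2, an RNA-decay factor, had 74 and 47. Apart from the lowest and highest, these baits were named after their values were seen. Ranking by 1 list alone kept 268 (LD) or 266 (CD) of the 300.

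Most contacts of the 300 baits were listed on both diets. Of 28117 bait and fragment pairs, 19757 (70.3%) were in both lists, against 51.8% for the other baits. By bait the median share was 70.8%. It was 53.8% over other baits with at least 10 fragments and 61.3% over those with at least 50. The highest share was 95.4%, for the bait of Lncpint, a long noncoding RNA induced by p53, with 2210408F21Rik, where 62 fragments were linked on both diets and 3 more on CD. The lowest was 37.9%, for Gm17415-201 with 52 links on LD and 68 on CD. Dhrs3 shared 92.5%, and Zfp595 shared 67.1%, with 9 fragments on LD only and 65 on CD only. The share fell with distance, from 77.5% within 100 kb of the 300 baits to 60.9% beyond 500 kb (61.9% and 37.7% for other baits). Both lists entered the choice of baits, so these shares are descriptions.

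**Figure D3:**
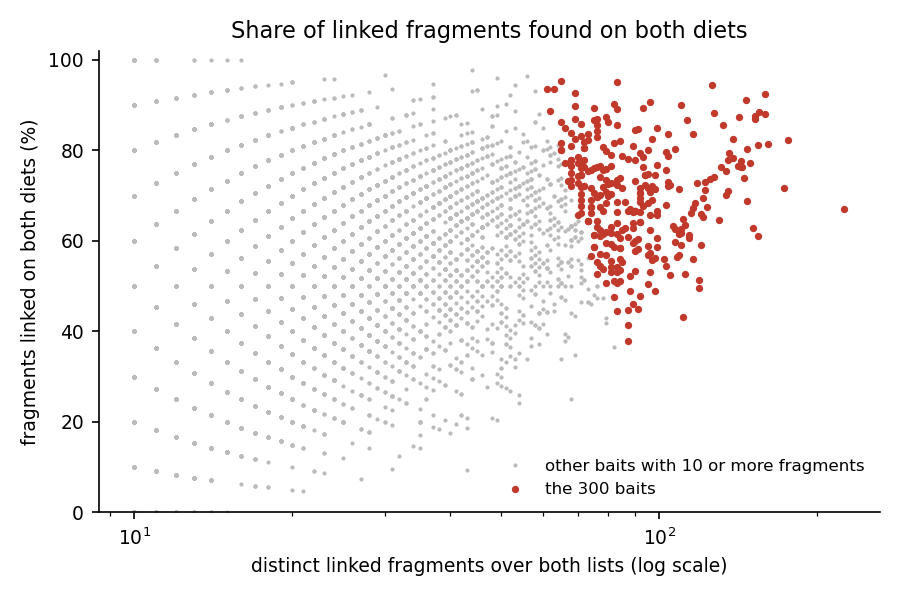
Share of the distal fragments of a bait that were linked on both diets (vertical axis, %) against the number of distinct fragments over both lists (log scale), for the 300 baits (red) and other baits with at least 10 fragments (grey). The 300 range from 37.9% to 95.4%.

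The many contacts formed long unbroken runs. In the 300 baits 88.8% of linked fragments adjoined another linked fragment, and 68.6% lay in a run of 5 or more, against 71.2% and 42.9% for other baits with at least 10 fragments. Runs and linked shares grow with the number of links by which the baits were chosen, so they are descriptions. The longest run had a median of 20 fragments and reached 64, at 1700058P15Rik-001. Within 500 kb of a bait there were a median of 313 HindIII fragments (308 for those other baits), and 25.7% of them were linked, against 5.35%. The highest such share was 72.1%, at the bait of Cd3eap and Ppp1r13l. Of their interactions 34.5% scored at least 10, against 20.1%, and 8.40% of the linked fragments were themselves baits, against 19%.

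The typical reach was ordinary. Pairs of the 300 baits had a median distance of 255 kb, against 241 kb for other baits. In 150 of the 300 baits (50%) at least 90% of fragments lay on 1 side, against 59.4% of the 6548 other baits with at least 10 fragments. All lay on 1 side for 86 of the 300 and for 2574 of those 6548. An example is Arrdc3, with a median distance of 465 kb. The number of other baits within 500 kb had a median of 5 on the favoured side and 5 on the other. In 27 baits the median distance was over 500 kb. Examples, with the median distance, were Osr1 (863 kb), Igfbp5 (862 kb), Dlx5 (826 kb), Shh (771 kb), Jun (669 kb), Irs1 (639 kb), Inhba (632 kb), Sox6 (626 kb), Col12a1 (609 kb) and Foxc1 (580 kb), and others were Krt12 (724 kb), Kif26b (638 kb) and Gpr33 (612 kb). Of the 27, 11 had no H3K27ac at the bait in any mouse, and the median share of their distal fragments with H3K27ac was 10.6%. These genes were named after their distances were seen.

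Many of the 300 baits shared a domain with another of them. They lay in 194 of 5912 domains of the LD list and in 193 of 5776 of the CD list, and 55 domains of either list held at least 2, with 161 and 162 baits between them. On LD 139 baits were the only one of the 300 in their domain. These counts were not tested against another set of baits. Chromosome 7 held 48 of the 300. Chromosome 12 held 24, the largest part of a chromosome's own baits (4.24%), and chromosome X held 2. The domain of such a bait had a median length of 375 kb on LD and 365 kb on CD, against 300 kb for other baits on both. The baits sat nearer a border, at a median of 46.3 kb (LD) and 51.1 kb (CD), against 63.3 and 64.1 kb for all other baits and 55.4 and 57 kb for those with at least 10 fragments. For 145 baits (48.3%) the LD and CD lists gave the same start and end, against 40.9% of other baits. Contacts left the domain somewhat more often. On LD 58.3% of interactions ended in the bait's own domain and on CD 59.0%, against 63.6% and 63.8% for other baits and 64.1% and 64.3% for those with at least 10 fragments.

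The domain with most of these baits was chr7:19960001-20335000 on LD, 375 kb long, where 9 of 17 baits were among the 300. Along the chromosome they were Ercc2 with Mir343, a helicase of the repair factor TFIIH, then Klc3, a kinesin light chain, Ckm, the muscle creatine kinase, Bloc1s3 with Trappc6a, both membrane-traffic subunits, Nkpd1, Ppp1r37, Clasrp, Relb and Tomm40. Interactions on LD and CD were 73 and 72 for Ercc2, 84 and 81 for Klc3, 68 and 113 for Ckm, and 103 and 125 for Nkpd1. Ppp1r37 had 55 and 88. The neighbouring domain, chr7:19480001-19960000, held 7 of 26, namely Qpctl, Eml2 with Gipr and Mir330, 1700058P15Rik-001, Ppm1n, Fosb, Ercc1-001 and Cd3eap with Ppp1r13l. In the CD list the border between them lay at 19970000, which moved Ercc2 across and left 8 on either side.

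These 16 baits shared their contacts. They had 185 distinct distal fragments in all, of which 93.5% were linked to at least 2 of them, and 99 of the 120 possible pairs of the baits were linked to each other. Fragments here were sparse, with 192 to 226 within 500 kb of each bait. Expression differed widely along the stretch. Ckm and Nkpd1 had no read in any of the 10 mice. Klc3 averaged 0.123 CPM (counts scaled to the normalised library size) on LD and 0.125 on CD, and Tomm40 averaged 24.7 and 24.3. Ppp1r37, a phosphatase regulator, averaged 55.6 and 57.5. Ckm and Nkpd1 also had no H3K27ac at the bait in any mouse, and their sums of 181 and 228 interactions lay inside the domain's range of 143 to 279.

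Other groups followed the same form. On chromosome 12, chr12:21290001-21690000 held 6 baits, all of which were among the 300, with Cpsf3, Iah1, Adam17, a membrane sheddase, and Ywhaq, a 14-3-3 protein. On chromosome 15, 6 of 10 baits of chr15:88910001-89180000 belonged, with Plxnb2, Mapk11 and Mapk12, and Hdac10. On chromosome 4, chr4:144460001-144930000 held 4 of 5, among them Dhrs3. Across all 300, 157 were linked to another of them in 310 pairs, and 5097 of their 16939 distal fragments (30.1%) were shared by 2 or more, up to 16.

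H3K27ac, which the choice of baits did not use, was read as the share of the 16939 distal fragments that overlapped a peak in each mouse. It was 28.4%, 28.9% and 27.3% in the LD mice and 26.5%, 26.7% and 26% in the CD mice. Every LD mouse was above every CD mouse. The means were 28.2% ± 0.801 and 26.4% ± 0.356 (SD, n = 3), a difference of 1.76 percentage points, with p = 0.1 in a two-sided exact permutation test, which is the smallest p that 3 against 3 can give. The difference was 1.14 when the overlap had to cover at least 50% of the fragment or of the peak. Distal fragments of other baits that no bait of the 300 touched differed in the same direction, at 30.0% on LD and 28.1% on CD, a difference of 1.90. The mice also had more peaks on LD, 53821 to 56987 against 48156 to 51608, and the part of this in the difference was not tested.

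The share fell with distance. Within 100 kb of the bait 44.6% of fragments carried H3K27ac on LD and 42.9% on CD, and beyond 500 kb 18.5% and 17.0% did. By linkage, fragments linked on both diets had 29.3% on LD and 27.6% on CD, those linked on CD only 26.6% and 25%, and those linked on LD only 22.8% and 20.4%. The baits themselves carried it in 74.1% on LD and 72.1% on CD, against 59.4% and 57.5% of other baits. It was present in all 6 mice at 202 of the 300 (67.3%, against 53.9%) and in none at 66.

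**Figure D4:**
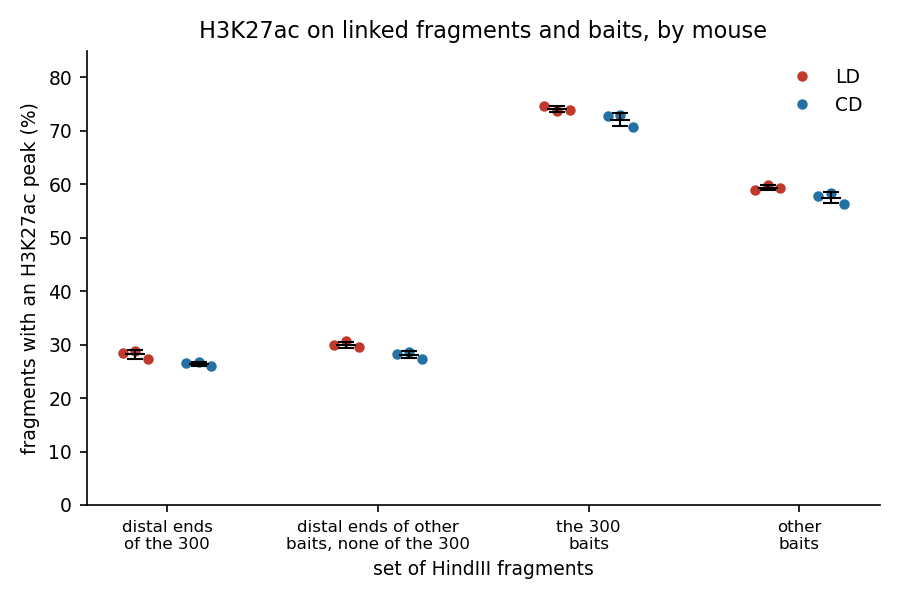
Share of HindIII fragments with an H3K27ac peak in each mouse (vertical axis, %), for distal ends of the 300 baits, distal ends of other baits only, the 300 baits and the other baits. Points are mice (red LD, blue CD), bars are the mean ± SD of 3. Distal ends of the 300 sit at 28.2% on LD and 26.4% on CD, and the baits at 74.1% and 72.1%.

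Bait by bait, the share of distal fragments with H3K27ac was higher in every LD mouse than in every CD mouse for 57 of the 300 (19%), against 9.27% of all 6848 baits with at least 10 fragments. The 300 had a median of 87.0 fragments, where a rank is finer. Of 403 other baits with at least 50 fragments, 14.6% did so. The opposite order held for 3 (1%), against 1.65% of all 6848 and 2.73% of those 403 other baits. These were Fam43a, its neighbour Lsg1, a GTPase of ribosome export, and Arhgap35, a GTPase activator. Fam43a had 50%, 52.5% and 50% in LD mice and 56.2%, 53.8% and 53.8% in CD mice. The count of 57 includes neighbours that share fragments, Relb, Tomm40, Clasrp and Cd3eap among them.

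Examples of the higher group are given with values, chosen after these were seen. Around Zfp36l2 the share was 65.3%, 69.3% and 68.0% in the LD mice and 50.7%, 56.0% and 48.0% in the CD mice. Around Car2, a carbonic anhydrase, it was 14.5%, 18.4% and 14.5% against 7.89%, 5.26% and 3.95%. Around Cd24a, a surface glycoprotein of progenitor and immune cells, it was 15.6%, 14.3% and 15.6% against 6.49%, 7.79% and 6.49%. Around Saa3, an acute-phase protein, with Saal1, it was 44.4%, 43.1% and 40.3% against 33.3%, 34.7% and 34.7%. Around Fosl2, an AP-1 subunit, it was 27.8%, 30.9% and 34.0% against 25.8%, 23.7% and 19.6%. The highest level of all was around Sik3, a kinase, at 77.3% on LD and 81.2% on CD, and around Arl4a no fragment carried it. Around Relb the means were 49.6% and 45.9%, and around Tomm40 54.6% and 51.0%.

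HNF4a, a nuclear receptor that sets hepatocyte identity, and C/EBPa, a leucine-zipper factor of liver metabolism, had peaks at a larger share of the 300 baits than of the others, described without a test. HNF4a peaks overlapped 47.7% and 44.3% of the 300 in the 2 LD mice and 41.7% and 51.3% in the 2 CD mice, where other baits ranged from 30.3% to 36.5%. C/EBPa peaks overlapped 38.0% and 37.7% on LD and 41.7% and 33.7% on CD, against 26.4% to 30.2%. The diets overlapped in both. At distal fragments the order turned. HNF4a was at 10.3% to 13.5% of distal fragments of the 300 and at 11.9% to 15.1% of those only other baits touched, and C/EBPa at 11.2% to 12.0% and 12.0% to 13.4%. Within each mouse the distal share of the 300 was the lower of the pair for both factors.

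Of the 300 baits, 242 carried 282 genes and 58 had no gene in the lists. Names of small nuclear or nucleolar RNAs (SNORA, SNORD, U1 or U6) were given to 6.67% of the 300 and to 7.23% of all baits. The median expression of the 282 genes was 5.62 TPM (length-scaled transcript abundance), against 2.35 for 15854 genes on other baits. Of the 282, 30 (10.6%) were at 0 TPM in every mouse and 93 (33.0%) were under 1, against 17.8% and 42.9% of genes on other baits. A further 84 (29.8%, against 25.4%) lay from 10 to 100, and 20 (7.09%, against 5.77%) reached 100 or more. Genes at baits with H3K27ac in all 6 mice had a median of 8.60 TPM (220 genes), and those at baits with none had 0.00401 (40 genes).

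Among the most expressed genes, most did not pass the test for diet. Elovl5, which elongates polyunsaturated fatty acids, averaged 983 TPM over the 10 mice. Cox6b1, a cytochrome c oxidase subunit, had 941, Nme2, a nucleoside diphosphate kinase, 394, and Fgl1, a hepatocyte-secreted fibrinogen-like protein, 319. Fxyd1, which regulates the sodium pump, had 266, Iah1 238, Lipa, the lysosomal acid lipase, 234, Gclc, which limits glutathione synthesis, 208, and Ndufb6, a complex I subunit, 201. Of these, Fgl1 and Lipa rose on LD. By edgeR's quasi-likelihood test Fgl1 rose by 0.35 on the log2 scale (adjusted p = 0.0273) and Lipa by 0.37 (adjusted p = 0.0138), and in both the diets overlapped. Fgl1 lost its call without any of 6 single mice (CD replicates 2, 4 and 5, LD replicates 1, 2 and 3), with an adjusted p of 0.0512 to 0.0742. Elovl5 had a log2 fold change of 0.39 with an adjusted p of 0.0685, and Gclc 0.40 with 0.0915. Elovl5 passed without LD replicate 1 (0.47, adjusted p = 0.0313), LD replicate 2 (0.46, 0.0415) or CD replicate 5 (0.48, 0.0357), and Gclc without LD replicate 1 (0.49, 0.0355) or LD replicate 2 (0.52, 0.0147).

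Diet calls were read in the genes on the 300 baits. Of 209 genes with enough reads, 52 (24.9%) were called at an adjusted p under 0.05 and a fold change over 1.2, against 24.9% of all 13494 genes tested. They split into 27 higher on LD (12.9%, against 13.8%) and 25 lower (12.0%, against 11.1%). The share called was 31.6% of 421 genes for the first 600 baits and 28.6% of 140 with one bait per domain, the latter chosen after seeing the data. The median log2 fold change was 0.009, and -0.002 over all genes. With limma on log2(TPM + 1), 35 genes were called higher and 11 lower, so 76.1% of calls were higher on LD against 51.9% here. Over all genes that share was 75.8% by limma and 55.4% here. The limma fit differs from this one in its test, its values and the genes it tests (18266). With edgeR and no filter on low counts, 18266 genes were tested and 56.3% of the calls were higher. Which of these differences moved the share was not tested. These are whole-liver values, in which fewer cells of a type and less RNA per cell cannot be told apart.

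The largest rise among the 209 tested genes was that of Dtl, a substrate receptor of a replication-coupled ubiquitin ligase. It was at 1.92, 3.25, 2.73, 1.49 and 2.52 CPM on LD and at 0.446, 0.470, 0.615, 0.540 and 0.437 on CD. All LD mice were above all CD mice, and the log2 fold change was 2.24 ± 0.241 (adjusted p = 3.96e-05). After a log2 change, ± gives a standard error derived from the test statistic, not the spread between mice. Its bait was linked 66 times on LD and 60 on CD. Aqp7, an aquaglyceroporin, had too few reads to be tested, with 101 counts over the 5 LD mice and 2 over the 5 CD mice. It was at 0.189, 0.252, 0.869, 0.515 and 1.09 CPM on LD and at 0.0319, 0, 0.0279, 0 and 0 on CD, all LD mice higher, and is named because these values were seen. Saa3 was at 13.6, 12.0, 7.20, 6.31 and 4.58 CPM on LD and 2.29, 2.92, 3.52, 1.49 and 2.74 on CD, a change of 1.75 ± 0.315 (adjusted p = 0.0022). Saa3 belongs to a family of similar genes whose reads can be hard to tell apart. Its distal fragments had H3K27ac more often in every LD mouse, as given above.

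The other genes of the 10 largest called changes without overlap and with at least 1 CPM on a diet are given here, apart from Jun, which is given with its list. Enc1, an actin-binding adaptor, averaged 13.0 ± 2.91 CPM on LD and 4.85 ± 1.2 on CD (SD, n = 5), a log2 change of 1.42. Col12a1, a collagen, averaged 7.89 and 3.08 (1.35), Rab30, a Golgi GTPase, 14.3 and 5.64 (1.34), and Thbs1, the matrix protein thrombospondin, 9.56 and 3.92 (1.28). Vcpkmt, a lysine methyltransferase of the VCP chaperone, averaged 2.93 and 1.62 (0.85). Falls were led by Fras1, an extracellular matrix protein of basement membranes, at 5.44, 4.35, 2.70, 3.37 and 3.10 CPM on LD and 7.52, 10.5, 11, 15.1 and 13.3 on CD, a change of -1.59 ± 0.213 (adjusted p = 0.000256). Inhba, which encodes the activin A subunit, followed at -1.32, with 2.54, 2.72, 2.36, 2.40 and 4.28 CPM on LD and 5.99, 8.25, 9.08, 7.88 and 4.45 on CD. The diets were apart in all of these, and for Inhba the gap was narrow, 4.28 against 4.45.

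Among the most linked baits, Zfp595 and Relb changed. Zfp595 was at 5.71, 6.44, 4.47, 3.82 and 5.37 CPM on LD and 7.58, 9.63, 8.97, 8.29 and 7.31 on CD. It was lower in every LD mouse, with a log2 change of -0.69 ± 0.140 (adjusted p = 0.00278). It belongs to a cluster of similar zinc-finger genes, so some of its reads may be shared. Relb was at 4.25, 4.58, 5, 5.12 and 4.28 CPM on LD and 2.49, 2.79, 2.04, 3.24 and 2.5 on CD, higher in every LD mouse, with a change of 0.83 ± 0.139 (adjusted p = 0.00081). The other genes of the first 20 baits that were tested did not pass. Arrdc3 had 0.29 (adjusted p = 0.328), Phlda1 -0.78 (0.169), Dhrs3 -0.22 (0.132), Cpsf3 -0.16 (0.0697), Cd3eap 0.30 (0.0553), Bhlhe40 0.06 (0.836) and Tomm40 0.02 (0.876). Phlda1 passed without LD replicate 1 (-1.22, adjusted p = 0.0076), Dhrs3 without LD replicate 4 (-0.32, 0.0168) and Cd3eap without CD replicate 3 (0.34, 0.0435). Cd3eap also passed by DESeq2 (0.29, 0.045) and by limma on TPM (adjusted p = 0.0216 with a pseudocount of 0.1 and 0.0187 with 1). In the richest domain Trappc6a also rose, by 0.30 (adjusted p = 0.0242), which was 0.0541 to 0.0599 without CD replicate 4, CD replicate 5 or LD replicate 4. Ercc2 had -0.15 (0.135).

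**Figure D5:**
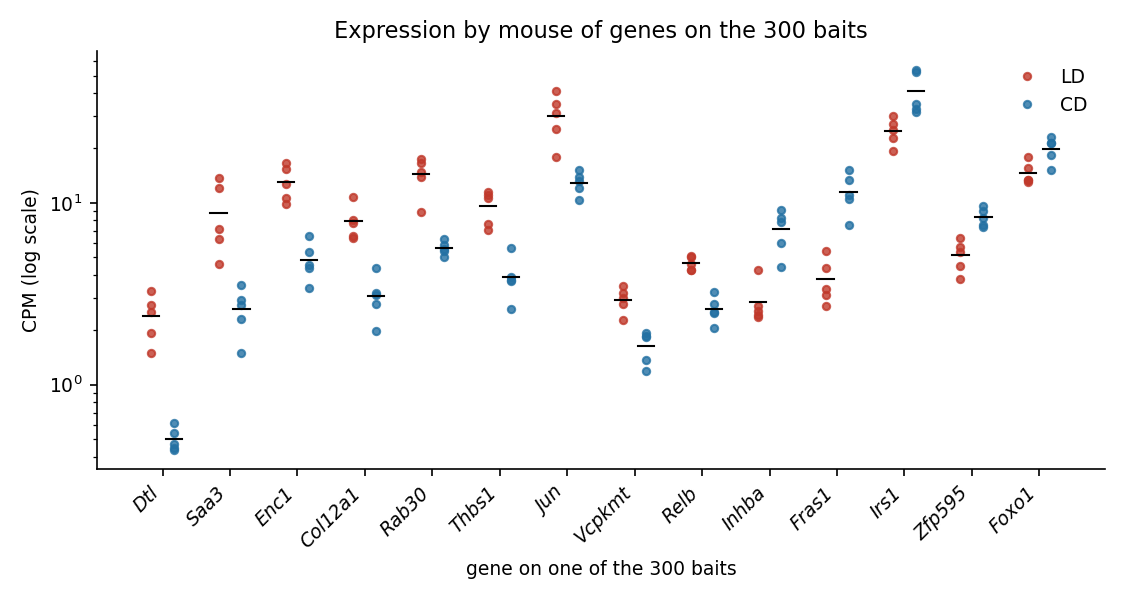
CPM of 14 genes on the 300 baits in each mouse (log scale, red LD, blue CD), with the mean of 5 mice as a line. From Dtl to Relb LD lies above CD, and from Inhba to Foxo1 below it, with overlap in Foxo1.

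Immediate early and AP-1 genes were the list most often found on these baits. Of the 21 on any bait, 6 (28.6%) were among the 300, where 1.75% of all bait genes were. They were Jun, Fosb and Fosl2, which form AP-1, Gadd45g, a DNA-damage and growth-arrest gene, and Zfp36l2 and Btg1, which act in RNA decay. Over the whole list 5 genes rose and 1 fell of 20 tested, where 13.8% and 11.1% of all genes tested did. Of the 6 on these baits, Jun alone passed the test. It was at 17.9, 25.3, 41.4, 31.1 and 35.1 CPM on LD and 10.3, 12.1, 15.1, 13.8 and 13.2 on CD, all LD mice higher, a change of 1.23 ± 0.198 (adjusted p = 0.00118). Its bait had 94 interactions on LD and 90 on CD at a median of 669 kb, and 39.2% and 35.4% of its distal fragments carried H3K27ac. Gadd45g had 0.23 (adjusted p = 0.807), Fosl2 0.18 (0.24), Fosb 0.46 (0.527), Zfp36l2 -0.15 (0.382) and Btg1 0.16 (0.251). Fosb passed without CD replicate 2 (1.39, adjusted p = 0.0157).

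The list of growth factor and insulin signalling genes was represented by Foxo1, the forkhead factor of fasting, and Irs1, the insulin receptor's docking protein. These 2 of its 30 genes on baits came to 6.67%, beside 1.75% of all bait genes. Both fell on LD. Irs1 was at 27, 19.2, 25.1, 22.8 and 29.9 CPM on LD and 35.1, 53.9, 52.5, 31.6 and 32.6 on CD, without overlap, a change of -0.73 ± 0.177 (adjusted p = 0.0106). Foxo1 was at 17.9, 13.0, 15.5, 13.4 and 13.4 on LD and 15.2, 21.4, 22.9, 21.2 and 18.2 on CD, with overlap, a change of -0.43 ± 0.119 (adjusted p = 0.0152). By limma on log2(TPM + 1) neither passed (adjusted p = 0.0552 for Irs1 and 0.127 for Foxo1). With a pseudocount of 0.1 Irs1 kept its call and Foxo1 did not (adjusted p = 0.123). Over the whole list 1 gene rose and 10 fell of 30, where 13.8% of all genes tested rose and 11.1% fell. The Irs1 bait was linked 98 times on LD and 108 on CD, and 5.42% and 4.61% of its distal fragments had H3K27ac. The Foxo1 bait was linked 119 and 116 times, with 18.9% and 15.2%.

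Other lists had between 0 and 4 genes on the 300 baits, and their shares are given beside the 1.75% of all bait genes, without a test. None of 27 liver transcription factors was there, where a share of 1.75% comes to less than 1 gene. Lipid and carbohydrate enzymes gave 1 of 57 (1.75%), Elovl5, and detoxification and transport families 1 of 186 (0.538%), Abca1, the cholesterol exporter, which fell by 0.52 on the log2 scale (adjusted p = 0.00202). Solute carriers gave 4 of 290 (1.38%), of which Slc22a23 fell by 0.43 (adjusted p = 0.00536) and Slc25a15, the mitochondrial ornithine carrier, by 0.27 (0.0349, and 0.0517 to 0.0936 without any of CD replicates 1, 2, 3 and 5 and LD replicates 3, 4 and 5). By limma on TPM neither passed, with adjusted p of 0.0582 and 0.125 at a pseudocount of 0.1 and of 0.0632 and 0.13 at 1. With a replicate block in edgeR Slc25a15 also lost its call (adjusted p = 0.0552). Slc4a4, a bicarbonate cotransporter, had 0.23 (0.418), and Slc39a2 was too low to test. Developmental factors gave 4 of 177 (2.26%), where Sox6 fell by 0.70 (adjusted p = 0.00145) and Foxc1, Lhx9 and Dlx5 were too low to test. The clock list gave 2 of 15 (13.3%), Bhlhe40 and Hlf (-0.13, adjusted p = 0.639), neither called. Chromatin regulators gave 1 of 23 (4.35%), Ncoa2, a nuclear receptor coactivator, which fell by 0.50 (adjusted p = 0.000592), and over that list 14 genes fell and 1 rose of 23. In the other lists with a gene on the 300 baits, 20 rose and 9 fell of 57 lipid and carbohydrate genes, 32 and 23 of 142 tested in the detoxification families, 30 and 26 of 206 solute carriers, 7 and 9 of 54 developmental factors, and 0 and 4 of 15 clock genes. Beside these list counts, 13.8% of all genes tested rose and 11.1% fell, and the lists were not tested against it.

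A further part of the calls is given by direction, named after their values were seen, with the log2 fold change. Higher on LD were Pctp, which carries phosphatidylcholine (0.59), Abhd6, a monoacylglycerol lipase (0.57), Hsdl2, a peroxisomal dehydrogenase-like protein (0.56), Ivns1abp (0.54), Car2 (0.86) and Irgm1, an interferon-induced GTPase (0.36). Lower on LD were Lsr, the lipolysis-stimulated lipoprotein receptor (-0.53), Dapk1, a death-associated kinase (-0.51), Creld2, an endoplasmic reticulum stress protein (-0.64), Lncpint (-0.54), Sik3 (-0.37), Thrb, a thyroid hormone receptor (-0.31), and Nfia (-0.37). Also called higher were Pdgfrl, with the largest change of these (1.12), Nap1l1, Arl4a, Sae1, Sergef, Ick, Abhd4, Zswim7 and Amdhd2, the last with the smallest (0.27). Also called lower were Sft2d3 (-0.49), Trabd (-0.40), Phlpp1 (-0.31), Plxnb2 (-0.30), Usf2 (-0.27) and Selo (-0.27). Abhd6 shares its bait with Dnase1l3, which moved the other way (-0.52, adjusted p = 0.0452).

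Change in contacts and change in expression were set side by side. Where all LD mice had more distal H3K27ac, 48 tested genes had 8 rises and 3 falls, with a median log2 change of 0.08. Where the mice overlapped, 158 genes had 19 rises and 22 falls, with a median of -0.00. Over the 209 genes the Pearson correlation of the log2 change with the H3K27ac difference was 0.196, and with the log2 ratio of LD to CD interactions -0.022. Genes on 1 bait share its value, and neighbours share fragments. Baits with at least 1.3 times as many interactions on LD had 13 tested genes and no call, and those with at least 1.3 times as many on CD had 23, of which 7 rose on LD and 3 fell. Over all genes tested 13.8% rose and 11.1% fell, and these small counts were not tested against it.

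Hepatocyte markers dominated all RNA-seq libraries, with a summed level of 97029 to 113224 TPM on LD and 96169 to 111078 on CD over 10 genes, 3 of which were called lower. The summed markers of neutrophils, cholangiocytes and stellate cells did not overlap between diets, and those of the other cell types did. The sum was 690 to 1563 TPM on LD and 430 to 824 on CD for Kupffer cells and macrophages (1 of 10 called higher), 14.4 to 266 and 5.71 to 9.95 for neutrophils (1 of 3 tested, of 4 markers), 51.3 to 149 and 19.5 to 34.7 for cholangiocytes (1 of 5), 152 to 227 and 120 to 143 for stellate cells (2 of 7), 230 to 304 and 232 to 272 for endothelial cells (1 of 7), and 4.93 to 10.4 and 4.90 to 6.44 for lymphocytes (1 higher and 1 lower of 8). Adipocyte markers summed to at most 0.168 TPM on either diet, with Lep and Plin1 at 0. Among all genes tested, 13.8% were called higher and 11.1% lower. No marker lay on the 300 baits. The part of these cells in the rises of Saa3, Col12a1, Thbs1 and Relb was not tested.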

How the data were processed

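The authors aligned RNA-seq reads to mm9 with STAR 2.5 and counted them by strand per RefSeq gene with featureCounts 1.5.0-p1, and deposited raw counts and TPM per mouse. Totals ranged from 31707963 to 39012699 counts per mouse. For capture Hi-C the authors ran HiCUP and CHiCAGO on pooled replicates, and the deposited score lists hold pairs of at least 5. Domains were called by HiCExplorer on summed replicates, H3K27ac peaks by SICER and factor peaks by HOMER per mouse, after Bowtie 0.12.8 and Picard 1.110. Versions follow the submitters' processing notes. The deposited table also holds the authors' own fold changes and FDR, which were not used. One TPM column, labelled replicate 13 of CD, was used as a CD mouse without a number.

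A pair between baits counted for both, and ties were broken by chromosome and start. Overlap of a fragment with a peak needed 1 base. Counts were tested with edgeR 4.0.16 in R 4.3.3 (TMM, filterByExpr, robust quasi-likelihood fit) over all genes, with Benjamini-Hochberg adjustment, called at an adjusted p under 0.05 and fold change over 1.2. CPM values are per mouse and are scaled to the library size after TMM normalisation. The test was checked on simulated data. Shares of fragments were compared by exact permutation over mice. Python 3.11.15 with pandas 2.3.3 did the rest. Genes named are those of the first 20 baits, the 10 largest called changes without overlap and at least 1 CPM, the 10 highest TPM, the baits about rank 300, the richest domain, the extreme shares and the genes of the lists. A gene that this rule names, and the list that holds it, are not reported here. The members and lists were chosen with earlier results of these data known. Alternatives were DESeq2 1.42.0, limma 3.58.1 on TPM, other filters, list lengths, scores and distances, leaving out each mouse and a replicate block.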

Additional observations from a re-analysis of the deposited data

Results flagged for a closer look

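In 7 of 108 groups of 5 mice looked at for the named genes, 1 mouse stood apart from the other 4 by Dixon's criterion, which chance alone meets in about 1 group in 20. Of the 7 genes, Inhba alone was called by diet. Gadd45g was at 13.8 CPM in LD replicate 1, where the other LD mice ranged from 2.30 to 3.10. Phlda1 was at 18.5 CPM in CD replicate 4, against 7.93 to 10.1 in the others. Fosb was at 0.887 CPM in CD replicate 2, against 0.140 to 0.223, and without that mouse its log2 fold change was 1.39 with an adjusted p of 0.0157 by edgeR. Tomm40 was at 20.3 CPM in LD replicate 5, below the 25.2 to 26.9 of the others. Inhba was at 4.28 CPM in LD replicate 5, above the 2.36 to 2.72 of the others and below every CD mouse. Cox6b1 was at 290.0 CPM in LD replicate 4, against 254 to 263. Ercc2 was at 10.5 CPM in LD replicate 2, against 9.96 to 10.1. LD replicate 5 stood apart in 2 genes, and no other mouse in more than 1.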

How the results depend on the processing

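The count of 52 called genes ranged from 43 to 54 when each mouse was left out in turn (23 to 31 higher and 19 to 25 lower on LD), and DESeq2 called all 52 the same way. Limma on TPM called 13 lower with a pseudocount of 0.1 and 11 with 1. The first 150 baits gave 24 calls (9 higher, 15 lower) and the first 600 gave 133 (65 and 68), or 23.1% of 104 and 31.6% of 421 genes tested. For the settings by score, by distance and by first ends the baits were ranked anew, so part of them differ from those described above. Values under these settings mix the setting with the change of baits. The share on both diets was 92.7% if ends within 5 kb matched and 95% within 10 kb, 69.1% at scores of at least 10, 72.0% within 500 kb, 72.2% for 150 baits, 68.2% for 600 and 71.5% with one bait per domain, a choice made after seeing the data. The share of pairs inside the LD domain, 55.5%, was 56.5% with CD domains, 59.2% with a margin of 20 kb, 68.8% at scores of at least 10, 52.9% for 150 baits, 56.9% for 600 and 56.7% counting first ends only, also chosen after seeing the data. The median of 5.62 TPM was 8.88 in CPM, 6.64 on baits with 1 gene, 5.16 for 600 baits, 6.07 for first ends and 6.38 with one bait per domain. The H3K27ac difference of 1.76 ranged from 1.42 to 2.20 without single mice and was 1.14 when an overlap had to cover at least 50% of the fragment or of the peak. With a replicate block, 53 genes were called (27 higher and 26 lower), and 49 of the 52 were called the same way. The H3K27ac difference with a block kept 1.76 with an exact p of 0.25, the smallest that 3 pairs allow. In the RNA-seq, deviations of same-numbered mice correlated at -0.078 to 0.1914, and 1 of 5 LD mice matched its own number best. This cannot settle whether the numbers pair mice, and it was not looked at for H3K27ac. Slc25a15 lost its call in 10 settings, Fgl1 in 6, Trappc6a in 3, Slc22a23 and Foxo1 in 2 and Irs1 in 1, and Elovl5 was called by DESeq2 (adjusted p = 0.0405). The cause of these shifts was not tested. With 2 pooled mice per list, no interaction count has an error.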
